A study of Gallus gallus with 16 samples.

Results

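The 60 array probes described here were those transiently high in the chicken embryonic pituitary gland at embryonic days 12 and 14. They were chosen by the deposited values themselves. Of 7200 rows in the table, 7103 held 3 or more values at every age, and 6310 of these differed by less than 0.45 between the means of embryonic days 17 and 10. The members are the 60 of these 6310 rows (0.951%) with the greatest height, which is the average of the day 12 and day 14 means minus the higher of the day 10 and day 17 means. Height and every difference of days 12 or 14 from days 10 or 17 are therefore descriptions of the choice. The difference between days 12 and 14, array batches and place in the table were not set directly by the choice. Replicate spread was not set directly either, but a choice of extreme means favours rows of large spread. Repeated spots of 1 gene were split by the choice into the 1 chosen and those left out.

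Chicken (Gallus gallus) pituitary glands were collected on embryonic day 10 (E10), 12 (E12), 14 (E14) or 17 (E17), in 4 replicates per age, each on its own two-colour cDNA array. Each replicate was a pool of glands. An E10 pool came from 16 embryos, an E12 pool from 8, an E14 pool from 4 and an E17 pool from 2, and the labels give no treatment. They record an amplified input of 500 ng for every sample. The Cy3 sample was set against a Cy5 pool of all 16 samples. Values are log ratios, centred and scaled as judged from the values themselves, and read here as log2 of sample over pool. A difference is in those scaled units and not a fold change. After centring, a value of 0 is the average ratio of an array's spots. It means a level like the pool's only if the average spot did not differ from the pool. In RNA of whole glands, fewer cells of a type and less RNA per cell cannot be told apart.

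The embryonic pituitary forms its hormone-producing cells over this period, and the study's title names thyrotrophs, somatotrophs and lactotrophs, which make thyrotropin, growth hormone and prolactin. In the chick, growth hormone cells become abundant in the second part of incubation, and adrenal glucocorticoids can induce them. Thyrotrophs appear earlier than somatotrophs, and lactotrophs come last. The probe annotation used here names 54 rows, all of them STUB1, so 59 members carry a row number in place of a gene, no hormone gene could be located to check the tissue label, and these 59 cannot be placed in a pathway or cell type.

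Averaged over the 60 members, E10 arrays stood at -0.10 ± 0.016, E12 arrays at 0.237 ± 0.064, E14 arrays at 0.237 ± 0.052 and E17 arrays at -0.062 ± 0.030 (SD over arrays, n = 4 each). The array means ran from -0.118 to -0.078 at E10, from 0.158 to 0.309 at E12, from 0.16 to 0.27 at E14 and from -0.107 to -0.039 at E17. They did not overlap between the middle and the outer ages, which the choice of rows favours. Replicate 1 had the lowest mean at both E12, at 0.158, and E14, at 0.16.

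**Figure D1:**
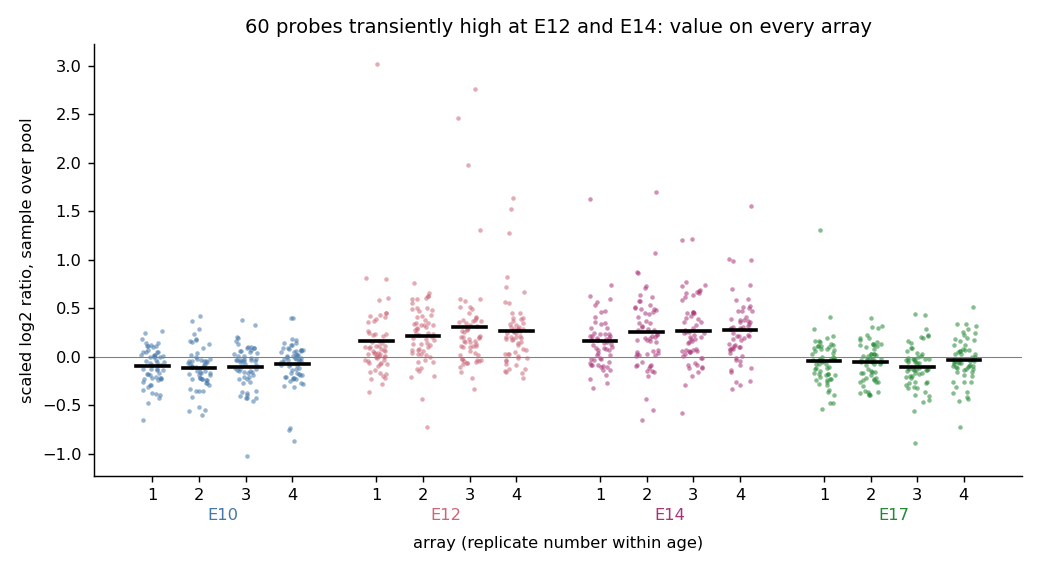
Scaled log2 ratio of each of the 60 members (points) on each of the 16 arrays, with the array mean as a bar. The array means lie between 0.158 and 0.309 at E12 and between 0.16 and 0.27 at E14, above all means at E10 and E17, and a few single points reach 3.02 at E12 while most members stay close to the bars.

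The members were highest at either middle age in nearly equal number, 29 at E12 and 31 at E14. The lowest mean was at E10 for 33 members, at E17 for 26 and at E14 for 1. Both middle means lay above both outer means in 57 members, and in the other 3, probes 5168, 6196 and 1923, 1 middle mean was not above both outer means. Values above 0 made up 31.9% of the members' E10 values, 76.2% of their E12 values, 77.4% of their E14 values and 34.7% of their E17 values. Means at E17 and E10 lay close together, with a median distance of 0.066 and a largest of 0.386.

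Heights were small for most members. The greatest was 0.607, the second 0.552 and the third 0.44, the median was 0.252, and 10 members exceeded 0.3. The last member, probe 7098, had a height of 0.216 and the first row left out, probe 1370, had 0.214. Within 0.01 of the last member lay 17 members, itself included, and 7 rows outside, so the lower edge of the list is not a break in the values. Over all 6310 rows that met the bound the median height was -0.071. Under the mirrored rule, the 60 rows most transiently low at the middle ages had depths from -0.346 to -0.191, with a median of -0.219.

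Probe 3488 had the clearest separation between arrays. Its values were -0.223, -0.414, -0.372 and -0.177 at E10, 0.413, 0.658, 0.293 and 0.399 at E12, 0.461, 0.725, 0.735 and 0.219 at E14, and -0.073, 0.189, -0.008 and 0.083 at E17. Every array of E12 and E14 was above every array of E10 and E17. This held for 1 member, probe 3488, and for no other of the 7103 rows tested (0.0141%). Its E10 mean was -0.30 ± 0.11, its E12 mean 0.44 ± 0.15, its E14 mean 0.53 ± 0.25 and its E17 mean 0.05 ± 0.11 (SD, n = 4), and all E17 arrays were above all E10 arrays.

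Probes 960 and 310 shared a rise over E10 and a fall to E17 with probe 3488, and were named after their values were seen. Probe 960 was at 0.007, -0.109, -0.031 and 0.117 at E10, 0.264, 0.307, 0.112 and 0.119 at E12, 0.591, 0.506, 0.68 and 0.269 at E14, and 0.11, -0.078, -0.118 and -0.04 at E17. Its E14 arrays lay above all arrays of E10 and E17, while its E12 arrays overlapped those of E10. Probe 310 was at -0.067, 0.016, -0.077 and -0.28 at E10, 0.235, 0.139, -0.045 and 0.18 at E12, 0.237, 0.148, 0.464 and 0.212 at E14, and -0.12, -0.077, -0.295 and -0.053 at E17. Here too E14 stood clear of both outer ages, and E12 replicate 3 fell among the E10 values.

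Other members of great height, 2 with a higher mean at E12 and 1 with a higher mean at E14, had arrays that overlapped more. Probe 6712, with a height of 0.607, was at -0.659, -0.607, -1.024 and -0.032 at E10, 0.156, 0.061, -0.052 and 0.327 at E12, -0.137, 0.576, -0.579 and -0.142 at E14, and -0.542, -0.216, -0.894 and -0.731 at E17. Its E12 arrays were above all E17 arrays and its E14 arrays overlapped both outer ages. Probe 7130, with a height of 0.552, was at 0.141, -0.021 and -0.76 at E10 with replicate 2 missing, 0.228, -0.726, 0.447 and -0.013 at E12, 1.623, 0.858, 0.205 and 0.086 at E14, and -0.122, -0.368, -0.367 and -0.457 at E17. Its E14 arrays lay above all E17 arrays and overlapped those of E10 and E12, and its height was 0.279 without E10 replicate 4. Probe 6279, with a height of 0.323, was at 0.239, -0.296, -0.459 and 0.4 at E10, 0.036, 0.35, 1.31 and 0.266 at E12, 0.17, 0.072, 0.18 and -0.032 at E14, and 0.094, -0.354, -0.017 and -0.07 at E17. Its E12 replicate 3 was 0.961 above the next value of the middle ages, and its height was 0.186 without that array and 0.18 without E10 replicate 3.

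**Figure D2:**
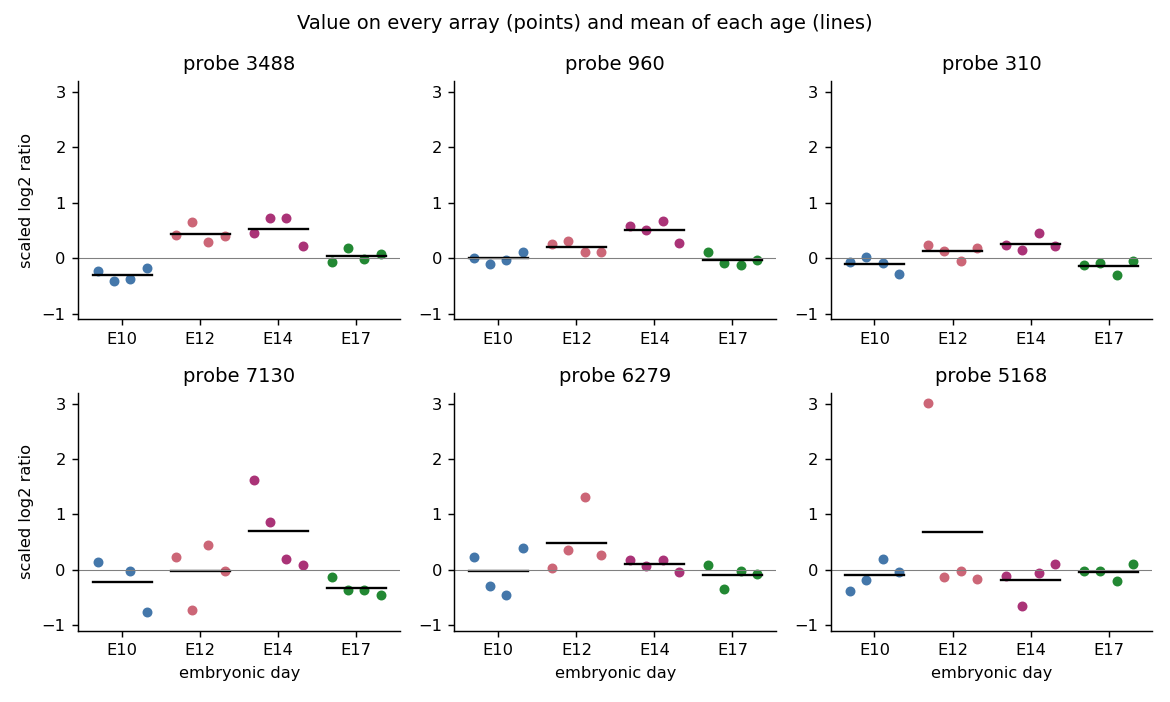
Scaled log2 ratio on every array (points) and the mean of each age (lines) for 6 members, with embryonic day on the x axis. Probe 3488 has all 8 middle arrays above the others, probes 960 and 310 are clear at E14, and probe 5168 owes its E12 mean to 1 array at 3.021.

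Counts of members past a threshold at each step describe the list only, because the choice used the same means. By limma with Benjamini-Hochberg adjustment over all 7103 rows, at 0.05, 1 member (probe 3488) was higher at E12 than at E10, where 0.296% of all rows were. At E14 against E10, 9 members were higher, beside 4.59% of all rows. At E17 against E12, 7 members were lower, beside 3.76% of all rows, and at E17 against E14, 4 were lower (probes 3488, 960, 310 and 2985), beside 0.718%. In all, 15 members passed at least 1 of these 4 steps, 9 by a rise and 9 by a fall, and the 3 that did both were probes 3488, 960 and 310. The other 45 members passed none of them.

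Several of these counts moved when single arrays were left out, and so did the calls over all rows, given here in either direction. The count at E12 against E10 was 0 without E10 replicate 2 or E12 replicate 2, where all-row calls were 3 and 2 in place of 28, and it was 2 without E12 replicate 3, with 24 all-row calls. At E17 against E12 it was 1 without E17 replicate 1, 2 without E17 replicate 3 or 4, 3 without E10 replicate 2 or E12 replicate 2, 3 or 4, and 4 without E10 replicate 4. All-row calls in these runs were 396 to 519, against 557 with all arrays. At E17 against E14 it was 7 without E14 replicate 1, with 136 all-row calls in place of 112, and 2 without any 1 of E10 replicates 1, 2 and 3, E12 replicate 4, E14 replicate 3 and the 4 E17 arrays, with 57 to 112 all-row calls.

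Groups of arrays that did not overlap were counted in the same way. E12 was above E10 without overlap in 13 members, beside 3.52% of all rows, and E14 above E10 in 15, beside 6.59%. E17 was below E12 without overlap in 12 members, beside 8.08% of all rows, and below E14 in 10, beside 3.58%.

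The difference between the middle ages was the one between-age comparison that the choice did not use directly. No member passed the test between E14 and E12: limma called 0 of 60 at an adjusted p under 0.05, and 0.788% of all rows, with 8 members and 10.1% of all rows at an unadjusted p under 0.05. The lowest adjusted p among members was 0.146, and the median standard error of the difference was 0.156. The arrays of E14 and E12 did not overlap, in either direction, in 1 member, beside 4.39% of all rows. It was probe 3244, lower at E14 by the estimate of -0.31 (SE 0.10, limma adjusted p = 0.233). The differences ran from -0.859 to 0.709 with a median of 0.026, and 31 members were higher at E14. Their median size, 0.179, was above the 0.098 of all rows. Members also had a larger SD within ages, pooled over the 4 ages, with a median of 0.242 against 0.172 for all rows. Whether this spread enlarged the differences was not tested. Without E14 replicate 1, 2 members were higher at E14 than at E12, probe 2372 by 0.68 (SE 0.14, limma adjusted p = 0.0202) and probe 1548 by 0.51 (SE 0.11, limma adjusted p = 0.0251), all 3 named after their values were seen. All-row calls in that run were 138, against 56 with all arrays.

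The members with the largest differences between the middle ages did not pass the test. Probe 7130 averaged 0.69 ± 0.71 at E14 and -0.02 ± 0.51 at E12 (SD, n = 4), a difference of 0.71 (SE 0.30, limma adjusted p = 0.41). It was 0.40 without E14 replicate 1 and 0.47 without E12 replicate 2. Probe 6196 averaged 0.96 ± 0.65 at E14 and 0.32 ± 0.51 at E12 (SD, n = 3 each, 1 array missing at either age), a difference of 0.64 (SE 0.35, limma adjusted p = 0.578). The values behind it were 1.697, 0.446 and 0.734 at E14 and 0.805, 0.364 and -0.218 at E12, so the ages overlapped. The difference was 0.27 without E14 replicate 2 and 0.37 without E12 replicate 4.

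In the opposite direction, probe 5168 averaged -0.18 ± 0.33 at E14 and 0.68 ± 1.56 at E12 (SD, n = 4), a difference of -0.86 (SE 0.48, limma adjusted p = 0.584). Its E14 values were -0.109, -0.653, -0.063 and 0.1, against 3.021, -0.122, -0.023 and -0.163 at E12. Without E12 replicate 1 the difference was -0.08. Probe 1923 averaged 0.08 ± 0.35 at E14 and 0.90 ± 1.25 at E12 (SD, n = 4), a difference of -0.82 (SE 0.39, limma adjusted p = 0.493). Its E14 values were 0.563, -0.082, 0.07 and -0.247, against 0.447, 0.102, 2.757 and 0.288 at E12. Without E12 replicate 3 the difference was -0.20. In both probes 1 array carried the E12 mean.

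Members varied more between replicates than the table as a whole. The SD within ages, pooled over the 4 ages, had a median of 0.242 over members and 0.172 over all rows tested, and ran from 0.122 to 0.81 among members. Above 0.279, the 90th percentile of all rows, lay 23 of the 60 members, and 15 were below the median of all rows. The median SD of members over E10 arrays was 0.149, against 0.113 for all rows, and over E12 arrays 0.195, against 0.165. Over E14 arrays it was 0.242, against 0.186, and over E17 arrays 0.164, against 0.136. Height exceeded the member's own pooled SD in 32 members, which the choice by height favours. The share of all rows is not given here, and nothing is read from this count. A choice of extreme means from few arrays also favours rows of large spread, so the higher SD is not read as a trait of the members. The part of replicate spread in the choice of rows was not tested.

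**Figure D3:**
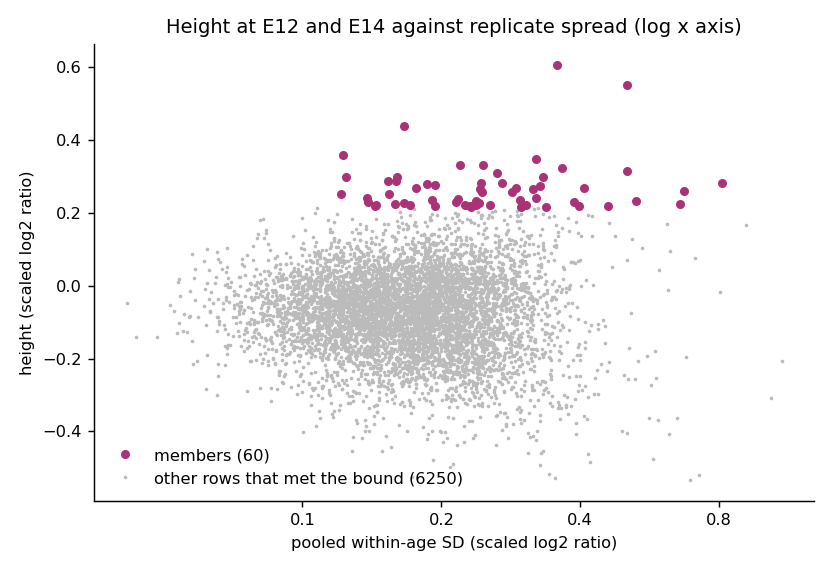
Height (y axis, scaled log2 ratio) against pooled within-age SD (x axis, log scale) for the 60 members and the other 6250 rows that met the bound on E17 minus E10. Members reach from an SD of 0.122 to 0.81, with 23 of them above 0.279.

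In some members 1 array stood far above the rest. In 15 members the highest of the 8 middle values was more than 0.5 above the next, and the largest such gap was 2.92, in probe 5168. Such a gap itself raises the SD within ages, which had a median of 0.408 in these 15 members and 0.225 in the other 45. By Dixon's criterion at its 95% level, 1 array was far above the other 3 in 8 of 118 member groups at E12 and E14 (6.78%), against 3.02% of such groups over all rows, and far below in 2, against 2.26% of such groups over all rows. The choice of rows by high means at these ages favours single high arrays there, so nothing is read from this difference.

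Medians over the 4 arrays, which weaken single high values, gave a similar typical height. The median height of the members was 0.243 from age medians, but 38 members reached the 0.216 of the last member, 7 were under 0.1 and 3 were under 0 (probes 1923, 5168 and 6067). With medians in place of means the rule chose 37 of the 60 members again.

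Each array was left out in turn and the rule applied to the other 15. It then chose 37 to 53 of the 60 members, 37 without E14 replicate 3 and 53 without E10 replicate 2. In all 16 runs 11 members were chosen, among them probes 3488, 960, 310, 6712 and 7130. Another 24 members were chosen in 12 to 15 runs, and 25 in fewer than 12, the fewest being 7.

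The 4 arrays of replicates 3 and 4 at E12 and E14 had blank values in 39 to 45 of the first 45 rows, against 0 or 1 on the other 12 arrays, and were treated as a possible batch. All belong to the ages at which the members are high. With the middle ages taken from these arrays, the median height of members was 0.301, with 58 members above 0, and with the middle ages taken from replicates 1 and 2 it was 0.211, with 56 above 0. Height was 0.216 or more in 47 members on the blank-block arrays and in 30 on the others. The highest middle value was on a blank-block array in 36 of 60 members. At E12 the mean over members was 0.309 and 0.263 on the blank-block arrays, against 0.158 and 0.217 on the others. At E14 it was 0.267 and 0.27, against 0.16 and 0.25. Every blank-block mean was thus above every other mean of the middle ages, and the cause was not tested.

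Beside age, a term for the blank-block arrays was called for 0 members and 0% of all rows by limma, with 8 members and 8.31% of all rows at an unadjusted p under 0.05. With these 4 arrays left out, the rule chose 21 of the 60 members again. Of the 60 members, 6 then passed at E14 against E10, 0 at E12 against E10, 1 at E17 against E12 and 3 at E17 against E14. All-row calls, in either direction, were then 301, 0, 298 and 80 in that order, against 567, 28, 557 and 112 with all arrays. Probe 3488 had a height of 0.363 on the blank-block arrays and 0.516 on the others, probe 960 had 0.299 and 0.421, and probe 310 had 0.305 and 0.292. These values are a description, since the choice of rows used both sets.

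**Figure D4:**
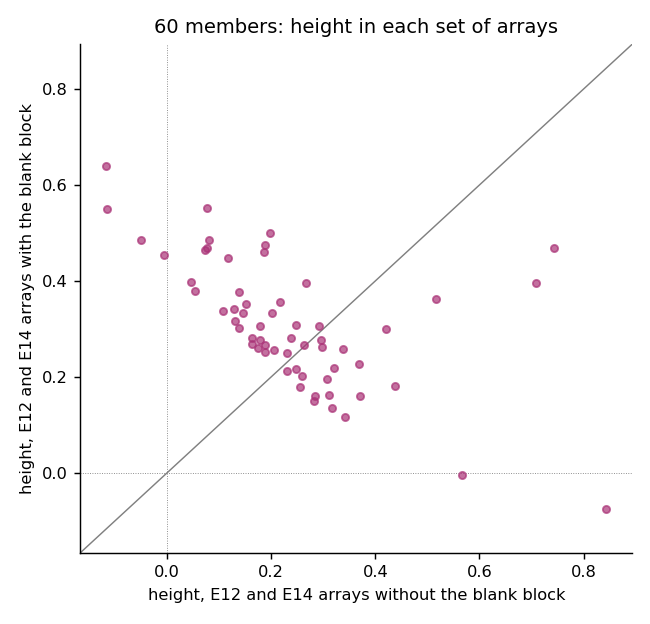
Height of each of the 60 members from the E12 and E14 arrays with the blank block (y axis) and from the other E12 and E14 arrays (x axis), in scaled log2 ratios, with a line at equal values. The empty lower left corner follows from the choice of rows on the average of both sets, and 58 members on the y axis and 56 on the x axis lie above 0.

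Place in the table was uneven. The last sixth of the table, rows 6001 to 7200, held 22 members (36.7%) and 18% of the 6310 rows that met the bound. The other sixths held 8, 10, 9, 7 and 4 members in row order. Of the 60 rows most transiently low, 21 lay in the last sixth as well. The median pooled SD of all rows was 0.156, 0.158, 0.165, 0.177, 0.184 and 0.201 from the first sixth to the last. It was highest in the last sixth and second highest in the fifth. Rows above the 90th percentile of SD numbered 209 in the last sixth and 141 in the fifth. Whether spread bears on place in the table was not tested. The members of the last sixth had a median pooled SD of 0.276, against 0.235 in the rest of the table. What the rows of each sixth hold was not tested. No 2 members were direct neighbours, and 18 lay within 10 rows of another.

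Most pairs of members shared little variation within ages, which cannot show that no shift was shared on single arrays. The median correlation between members of their deviations from the age means, over the same 16 arrays, was 0.019, and -0.001 between all rows tested. Missing values were few: 5 members lacked 8 values in all, and 251 rows tested (3.53%) lacked any.

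One member has a gene name. Probe 2414, is annotated as STUB1, which marks misfolded client proteins of chaperones with ubiquitin, and ranked 40 of 60 with a height of 0.23. It was at 0.144, 0.421, -0.044 and -0.026 at E10, 0.588, 0.609, 0.018 and 0.274 at E12, 0.742, 0.208, 0.075 and 1.55 at E14, and 0.413, 0.393, 0.056 and 0.25 at E17. All 4 ages overlapped, and E14 replicate 4 was 0.808 above the next of the middle values.

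The annotation gives the same gene and sequence record for 53 further spots. They are the rows of this name that the rule left out, which favours lower heights among them. Their values below, the permutation p included, are therefore a description. Whether these 54 spots are repeats of 1 clone is not stated in the sources used here. Within an array the SD between them had a median of 0.235, against 0.261 between all rows, so spots of this name varied nearly as much as unrelated rows. The heights of the 53 ran from -0.432 to 0.121 with a median of -0.090, and 8 of 53 (15.1%) were above 0, as were 22.6% of all rows tested. Averaged over these spots, E10 arrays stood at 0.034 ± 0.025, E12 arrays at 0.011 ± 0.011, E14 arrays at 0.018 ± 0.034 and E17 arrays at 0.019 ± 0.027 (SD over arrays, n = 4 each). Over both middle ages it was 0.014 ± 0.024, against 0.026 ± 0.026 over both outer ages (SD, n = 8 each), a difference of -0.012 (two-sided exact permutation p = 0.33). The same difference in probe 2414 was 0.307. The permutation for the other spots shuffled all arrays alike, without regard to the ages within each side or to replicate numbers. On 4 arrays, all of them at E12 or E14, probe 2414 was above every one of the 53 other spots, and on the other 12 it was not. Probe 2414 was chosen for high values at these ages and the 53 were not. Its larger difference and its place above them at E12 and E14 are favoured by that choice, and nothing is read from them. Given the spread between spots of this name, these values are not read as the level of STUB1.

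**Figure D5:**
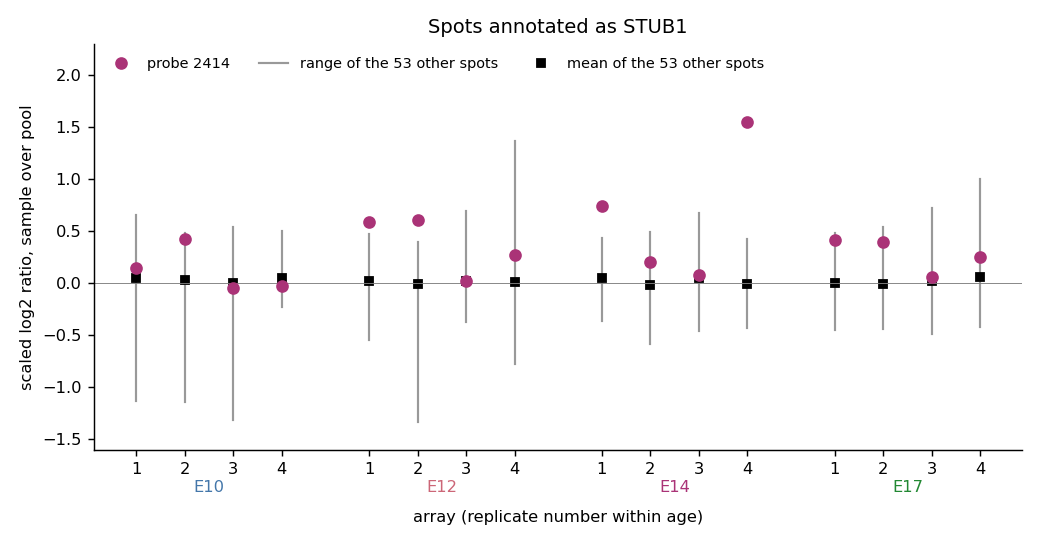
Scaled log2 ratio of probe 2414 (circles) and the mean (squares) and range (lines) of the 53 other spots annotated as STUB1, on each of the 16 arrays. The means of the other spots stay between -0.014 and 0.055, while probe 2414 reaches 1.55 on E14 replicate 4.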

How the data were processed

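The deposited table holds 1 log2 ratio per spot and array, centred and scaled by the authors, judging from the values (SD 0.261 on all 16 arrays). How spots were read, filtered and normalized is not stated in these sources. The labels give the dyes and the pool (2 µg of each sample) but not the direction of the ratio or the log base; it was read as sample over pool, base 2. In 56 rows that varied most between ages, the mean ratio then had an SD of 0.102 (log2 scale) around a median of 0.918. With the sign turned it had 0.33 around 1.49. A pool of equal parts keeps the mean of unscaled ratios constant, and these values were scaled and of unstated base, so the check is a rough one. Arrays correlated down to r = -0.369; ages can oppose each other around their own pool, so the direction was kept.

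Samples were grouped by the age in their labels. All rows with 3 or more values per age entered 1 limma fit (version 3.58.1, R 4.3.3; lmFit, then eBayes) with a mean per age and no block, with Benjamini-Hochberg adjustment over 7103 rows. Summaries used Python 3.11.15, pandas 2.3.3 and SciPy 1.17.1. The code of the fit and of the rule was run on simulated data. For the rule, the planted shift was larger than any member's height and the noise smaller than any member's pooled SD. For the fit, the noise was independent between arrays, without batch or pairing. These runs therefore do not measure how well either works on the members. The series' design calls the replicates biological and the labels do not tie them to hatches or days. Each pool was on 1 array, so p-values measure the spread between arrays, with pool and technical variation together. The fit used 1 residual variance per row over all ages, whose pools held different numbers of embryos. With 4 arrays per age, precision is limited. The members and the tests were chosen with earlier results of these data known. Named are the 2 members of greatest height among those higher at E14 than at E12 and the 2 among those lower, the 2 with the largest positive and the 2 with the largest negative difference of E14 minus E12, the rows at the edge of the list, and the member with a gene name; planned gene lists could not be applied without gene names. Same-numbered arrays of E14 and E12 deviated together (r = 0.148 to 0.437), and unlike-numbered ones had r from -0.351 to 0.207. Among same-numbered arrays r was 0.027 to 0.296 for E17 with E14 and -0.013 to 0.301 for E17 with E12. It was -0.084 to 0.206 for E12 with E10 and -0.019 to 0.141 for E14 with E10. The limma p-values in the Results come from fits with no block, and the replicate number as a block was an alternative only. Whether the numbers pair the samples is not stated. Alternatives covered normalization, missing values, array weights, batch, pairing and left-out arrays.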

Additional observations from a re-analysis of the deposited data

Results flagged for a closer look

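The named rows and the members' mean gave 38 groups with values on all 4 arrays of an age, with 6 incomplete groups left out. In 3 of the 38, 1 array stood apart, where 1 group in 20 would be about 1.9. Most named rows were picked for height or for their E14 minus E12 difference, which favours single extreme arrays. The 1.9 is therefore not a chance count for them, and nothing is read from the comparison. Probe 5168 was at 3.021 on E12 replicate 1, with the other E12 arrays between -0.163 and -0.023. Probe 1923 was at 2.757 on E12 replicate 3, with the others between 0.102 and 0.447. Probe 1370, the first row left out of the list, was at -0.032 on E10 replicate 4, with the others between -0.187 and -0.167. The mean over the 60 members had no such array at any age. Probes 5168 and 1923 would have heights of -0.055 and -0.102 from age medians, and were chosen in 15 and 12 of 16 runs that left out 1 array. Their outlying array was missing from only 1 of these runs, so the counts do not show independence from it.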

How the results depend on the processing

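Median height of the members stayed between 0.211 and 0.278 over 20 alternatives. With arrays left out in turn, members past each step numbered 0 to 2 at E14 against E12 (0 with all arrays), 0 to 2 at E12 against E10 (1), 6 to 13 at E14 against E10 (9), 1 to 8 at E17 against E12 (7) and 2 to 7 at E17 against E14 (4), and the rule chose 37 to 53 members again. At E14 against E10, all-row calls in either direction were 422 in the run with 6 members and 573 in the run with 13, against 567 with all arrays. The batch term was called for 0 members in 22 alternatives, with 0 to 4 all-row calls. At E17 against E14, quantile normalization gave 2 and a fit of the 2 ages alone gave 1. All-row calls there were 98 and 42, in place of 112. At E17 against E12, median centring gave 4, with 531 all-row calls in place of 557. Array weights gave 2 at E12 against E10, with 64 all-row calls in place of 28. Without the blank-block arrays there were 0 at E12 against E10 and 1 at E17 against E12, with 0 and 298 all-row calls in that order. The rule then chose 21 members again, and age medians in place of means gave 37. The cause was not tested. With the replicate block, E14 against E12 had 0 members, as without it, and 70 all-row calls in place of 56. The limma adjusted p of that difference was then 0.242 for probe 7130, 0.226 for probe 6196, 0.397 for probe 1923 and 0.48 for probe 5168. In the same fit E12 against E10 had 2 members, with 64 all-row calls in place of 28. E14 against E10 had 15, with 696 in place of 567. Whether the numbers pair the samples is not stated. In the blank-block arrays of E14 and E12 alone, an alternative chosen after seeing the data, the difference turned to -0.071 in probe 7130 and 0.11 in probe 5168, against 1.49 and -1.83 on the other arrays. In probe 1923 it was -1.61 on the blank-block arrays and -0.034 on the others. The other counts were within 1.5 times their values.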
